A study of Homo sapiens with 2 samples.

Results

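The imprinted 14q32 cluster is a long run of miRNA hairpins between DLK1 and DIO3 on human chromosome 14. Here it was taken as every array probe named for 1 of 42 miRNA numbers of the cluster, with any letter and either arm, which gave 90 of the 2632 miRNA probes. RefSeq (GRCh38.p14) places 88 of these mature miRNAs on chromosome 14. It places miR-544b on chromosome 3, so this probe belongs to the set by its number and not by its position, and the table used here has no entry for miR-668-3p. The 88 span chr14:100852409-101066786 on the plus strand.

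The samples were exosomal RNA of U87MG delta EGFR cells, a glioblastoma line that per its name carries a truncated epidermal growth factor receptor. Exosomes are small vesicles that cells shed into their medium. The BNCT sample came from cells held for 2 hours with 25 ppm of a p-boronophenylalanine-fructose complex and irradiated with thermal neutrons, with medium collected 3 days later (boron neutron capture therapy, in which neutrons split boron inside loaded cells). The control sample came from cells labelled as not treated. Both cultures grew in medium with serum depleted of exosomes. A single treatment text accompanies the 2 samples in the labels. It was read as describing the BNCT sample, and nothing says whether the control cells were sham handled. The titles name exosomes, while the extraction text speaks of cells. Each group had 1 one-colour array, without replicates, so nothing could be tested and the number of arrays limits the precision. Compound, neutrons, handling and slide cannot be told apart.

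The cluster is expressed from the maternal chromosome only, next to the noncoding RNAs MEG3 and MEG8, while DLK1, RTL1 and DIO3 are expressed from the paternal one. Its miRNAs are known for their high expression in brain and placenta. Each hairpin is cut into a 5p and a 3p arm, and one of these usually becomes the guide strand that is loaded into Argonaute. Pairing of the guide with a transcript runs mainly through the seed, bases 2 to 8 of the mature miRNA.

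The sequences of the 7 miRNAs that were above the detection limit on both arrays are shown first, 5′ to 3′ with the seed in capitals, since the levels below rest on these probes (RefSeq, GRCh38.p14).
miR-370-3p: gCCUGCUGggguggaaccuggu
miR-379-5p: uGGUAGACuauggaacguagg
miR-654-5p: uGGUGGGCcgcagaacaugugc
miR-1185-1-3p: aUAUACAGggggagacucuuau
miR-1185-2-3p: aUAUACAGggggagacucucau
miR-668-5p: uGCGCCUCgggugagcaug
miR-323b-3p: cCCAAUACacggucgaccucuu
Of these, 5 hold a run of 3 or more G (all but miR-379-5p and miR-323b-3p). miR-1185-1-3p and miR-1185-2-3p share their seed and differ by the substitution U20C, counted from 1 at the 5′ end, so their probes may not tell the 2 miRNAs apart.

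Most miRNAs of the cluster read at the level of spots that carry nothing. Detection was called against the array's own 312 blank spots. Without their top and bottom 5%, their mean plus 2 SD put the limit at 267.5 scanner units on the BNCT array and 272.0 on the control array. By this rule 15 of 90 were detected on the BNCT array (16.7%, exact 95% binomial interval 9.64 to 26) and 13 on the control array (14.4%, 7.92 to 23.4). Over all miRNA probes 36.2% were detected on the BNCT array and 28.6% on the control array. On both arrays 7 of 90 were detected (7.78%), against 23.9% of all probes. The intervals count probes only, and say nothing of cultures or slides. The 90 spots ran from 236.4 to 362.6 units on the BNCT array with a median of 256, and the 89 with a passing flag ran from 230.3 to 316.0 on the control array with a median of 260.7. The miRNA probes outside the cluster had medians of 261.3 units on the BNCT array and 262.6 on the control array, also under the limits. The blank means were 254.9 and 258.1 units on these arrays, and 38 of 90 spots on the BNCT array and 36 of 89 on the control array lay below them. The limit is lenient. Of the 312 blank spots themselves, 16 passed it on the BNCT array and 17 on the control array. Spots that were printed without a probe averaged 288.5 units on the BNCT array and 301.1 on the control array, and 10 of the 15 and 10 of the 13 detected cluster miRNAs lay below those means. With a limit set from these spots 4 of 90 passed on the BNCT array and 0 on the control array, against 15.3% and 8.93% of all probes.

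The brightest spot of the cluster on both arrays was miR-1185-1-3p, at 362.6 units on the BNCT array and 316.0 on the control array. miR-654-5p read 333.8 units on the BNCT array and 302.7 on the control array. miR-668-5p read 319.3 and 307.1 units on the BNCT and control arrays. These 3 miRNAs were the only ones of the cluster above a limit of 5 SD on both arrays, a limit that 5 of 90 passed on the BNCT array and 3 on the control array, against 19.9% and 13.5% of all probes. miR-370-3p, cut from a hairpin within the span of MEG8, read 313.7 units on the BNCT array and 287.1 on the control array, and miR-1185-2-3p read 304.1 units on the BNCT array and 287.7 on the control array. Both passed 5 SD on the BNCT array alone. miR-379-5p, from the first hairpin of the large downstream group, read 277.1 units on the BNCT array and 273.2 on the control array. miR-323b-3p read 276.0 units on the BNCT array and 283.1 on the control array. It was the only one of the 7 with the dimmer raw spot on the BNCT array. Brightness depends on the probe as well as on the amount of RNA, so these values do not rank the miRNAs by abundance.

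In the main processing the 7 miRNAs were close to equal between the arrays. Spots were corrected with the normexp model on the blanks, put on the log2 scale and quantile-normalized over all miRNA probes, and differences are BNCT minus control. An offset of 50 was added before the log, which shrinks differences of dim spots, and quantile normalization removes a shift common to the array. The spot error joins the SD of the blanks and the coefficient of variation of the spike spots, and covers noise within an array only. miR-370-3p differed by 0.07 (spot error 0.17), miR-379-5p by 0.05 (0.18), miR-1185-1-3p by -0.03 (0.14), miR-654-5p by -0.04 (0.15) and miR-1185-2-3p by -0.05 (0.17). miR-668-5p at -0.27 (spot error 0.15) and miR-323b-3p at -0.26 (spot error 0.18) were the only 2 past 1 spot error, and both were lower on the BNCT array. Of the 7, 2 were higher on the BNCT array, beside 45.9% of all 630 probes detected on both arrays. None of the 7 passed 3 spot errors, 0.5 on the log2 scale or 2-fold. Among the 630 probes 4.44% passed 3 spot errors, 1.9% were higher and 1.75% lower by 0.5 or more, and 0% passed 2-fold. The median of the 7 was -0.04, beside -0.02 over the 630 probes, whose SD was 0.22. With plain subtraction of the blank mean in place of the normexp model and offset, miR-323b-3p was at -0.79 and miR-668-5p at -0.51. The others then lay between -0.12 and 0.18.

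The sign of these differences depended on the scaling. Without normalization the median of the 7 was 0.32 and that of all 630 probes 0.45. With scaling to the spike control spots these were 0.60 and 0.73, and in the authors' processed values 0.43 and 0.41. These 7 shifted in the same direction as the 630 probes in these settings, which does not describe the rest of the cluster. Over the 89 cluster miRNAs with passing flags, 34 raw spots (38.2%) were brighter on the BNCT array. Their median raw difference was -3.63 units, beside -2.75 over the blank spots. miR-323b-3p kept a lower value on the BNCT array without normalization (-0.07) and in the authors' values (-0.55), but turned to 0.21 with spike scaling and to 0.28 where the background column of the scanner was used. miR-668-5p was 0.09 in the authors' values and 0.50 with spike scaling.

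**Figure D1:**
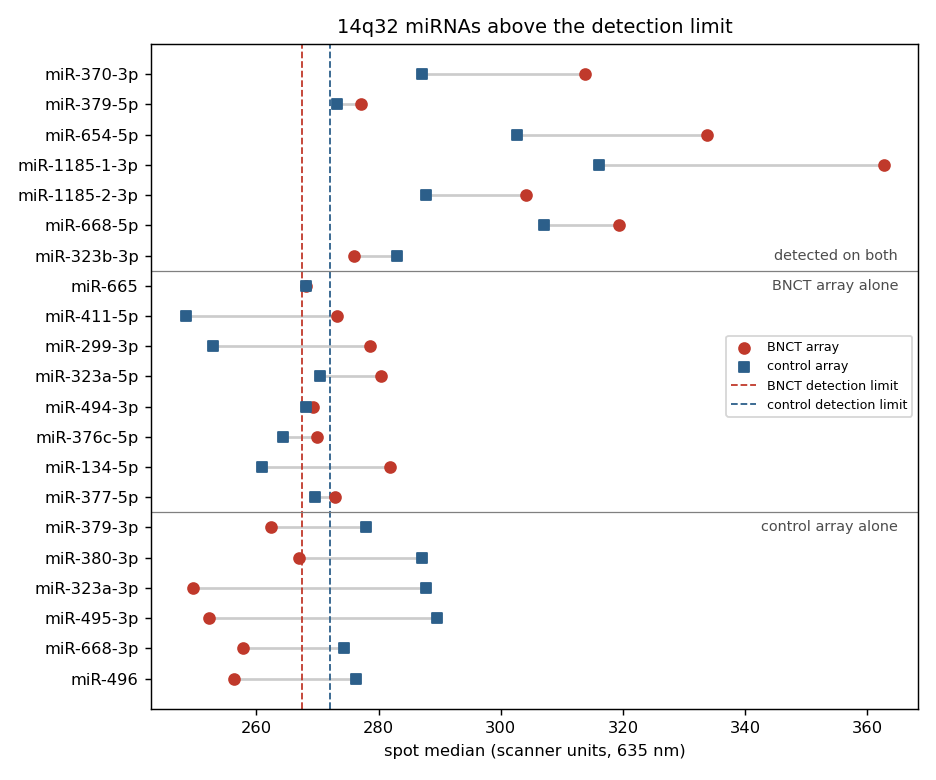
Spot median in scanner units (x axis) of the 21 cluster miRNAs detected on at least 1 array, with BNCT as circles, control as squares and the detection limits of 267.5 (BNCT) and 272.0 (control) as dashed lines. The 7 miRNAs detected on both arrays include all spots above 300 units, and most of the others lie within 20 units of a limit.

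**Figure D2:**
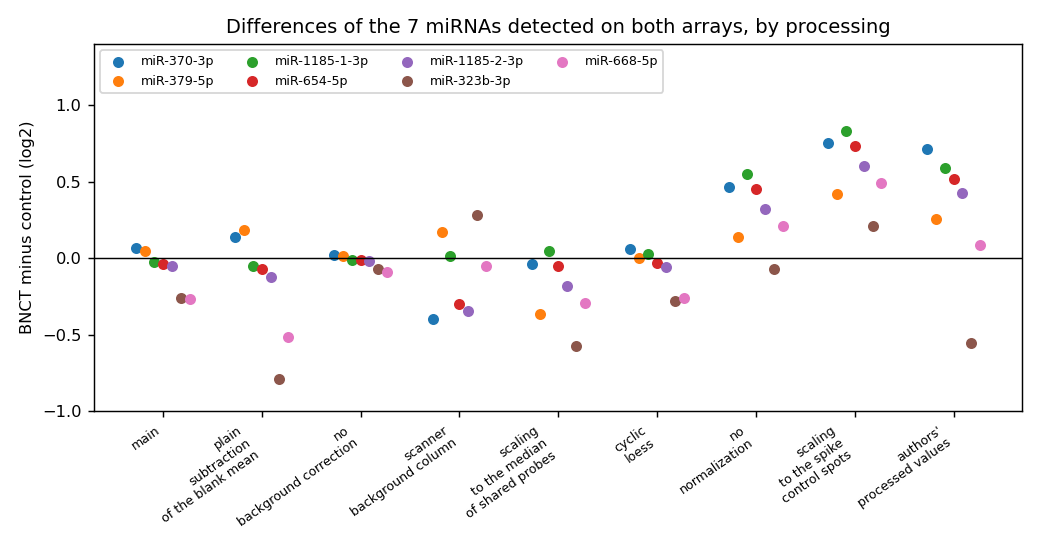
Difference between the arrays (log2, BNCT minus control, y axis) of the 7 miRNAs detected on both, for each processing (x axis). The points lie between -0.27 and 0.07 in the main processing, and 6 of 7 lie above 0 without normalization and in the authors' values, with miR-323b-3p below 0.

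On the BNCT array alone 8 miRNAs of the cluster were detected, beside 12.3% of all probes. The brightest was miR-134-5p, which is known from rodent neurons as a dendritic regulator of Limk1, at 281.9 units on the BNCT array and 260.9 on the control array. miR-323a-5p read 280.4 units on the BNCT array and 270.4 on the control array, miR-299-3p read 278.6 and 253.0 units, and miR-411-5p read 273.2 and 248.5 units, in the same order of arrays. The bound on the normalized fold, higher on the BNCT array, was 1.10 for miR-134-5p, 1.09 for miR-323a-5p and 1.06 for miR-299-3p. That of miR-411-5p was at 1. The bounds leave out the spot error, so they are not limits on the fold of RNA. Each bound sets the bright array's level against the lowest detected level of the dim array, or the dim spot's own level where that is higher. miR-377-5p (272.9 units on the BNCT array, 269.6 on the control array), miR-376c-5p (269.9 and 264.3), miR-494-3p (269.3 and 268.1) and miR-665 (268.2 and 268.1) had no bound above 1. The miR-665 and miR-494-3p spots were nearly equal on both arrays, and their call on the BNCT array alone came from the lower limit there. A bound above 1 was had by 4 of these 8, beside 54.2% of all probes with this pattern of calls, and by none of the 8 with scaling to the shared median. With the scanner's background column the bounds of miR-323a-5p, miR-299-3p and miR-411-5p fell to 0.91, 0.94 and 0.77. In that setting miR-134-5p had 1.18 and miR-376c-5p 1.28.

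On the control array alone 6 were detected, beside 4.64% of all probes. miR-495-3p read 252.3 units on the BNCT array and 289.5 on the control array, miR-323a-3p read 249.6 units on the BNCT array and 287.7 on the control array, and miR-380-3p read 267.0 units on the BNCT array and 287.2 on the control array. The first 2 of these spots lay below the blank mean in BNCT, while miR-380-3p lay just under the limit there. The bound on the normalized fold, lower on the BNCT array, was 1.51 for miR-495-3p, 1.46 for miR-323a-3p and 1.43 for miR-380-3p. These 3 bounds were above 1 under all 7 other settings of the scanner values, with lowest values of 1.05, 1.03 and 1.02 under spike scaling. Plain subtraction, no background correction and the scanner's background column use the same quantile normalization. A bound above 1 in these settings is therefore no separate support. The bounds leave out the spot error here too. miR-379-3p (262.4 units on the BNCT array, 277.9 on the control array), miR-496 (256.4 and 276.3) and miR-668-3p (257.8 and 274.3) had bounds of 1.17, 1.13 and 1.10, which ended under spike scaling. None of the 6 passed 5 SD on either array. All 6 bounds were above 1, as were those of 100% of the 122 probes with this pattern of calls, which the normalization fixes. Each value rests on 1 spot per array.

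The spot of miR-410-3p, which closes the cluster beside miR-656, could not be compared. In BNCT it carried a passing flag and read 250.6 units, below the blank mean. In control it read 578.4 units with a failure flag at all 3 scanner gains, and it was treated as missing there. The 5 neighbouring spots in its block read 247.8 to 267.5 units on the BNCT array and 249.9 to 270.5 on the control array, so the brightness was limited to this spot. Its local background was 199.7 units on the BNCT array and 300.0 on the control array, where the neighbours had 181.8 to 213.6. The other arm, miR-410-5p, read 242.2 units on the BNCT array and 248.4 on the control array, under both limits.

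Detection is described here in chromosomal order, beside 36.2% and 28.6% of all probes detected on the BNCT and control arrays. The upstream group, from miR-770 within MEG3 to miR-370 within MEG8, had 2 of 18 miRNAs detected on the BNCT array (11.1%) and 1 on the control array (5.56%). These were miR-370-3p on both arrays and miR-665 on the BNCT array alone. The 10 arms of miR-431, miR-433, miR-127, miR-432 and miR-136 lie within the span of RTL1 and on the strand opposite to it, and are known from mouse to guide the cleavage of RTL1 mRNA. All 10 were below the limit, at 246.0 to 262.9 units on the BNCT array and 241.9 to 265.4 on the control array. Counting error alone would allow a detected share of up to 30.8% there (exact 95% interval). The downstream group, miR-379 to miR-656 with miR-544b counted in it by number, had 13 of 72 detected on the BNCT array (18.1%) and 12 on the control array (16.7%). The exact intervals of the 2 groups overlap, at 1.38 to 34.7% upstream and 9.98 to 28.9% downstream on the BNCT array. Within it the 11 miRNAs that lie inside the span of MIR381HG, from miR-381 to miR-655, were all below the limit, at 247.8 to 264.9 units on the BNCT array and 244.6 to 271.5 on the control array (0 of 11, exact interval up to 28.5%). The intervals of both dark stretches hold the 16.7% and 14.4% of the whole cluster. The neighbours of the MIR381HG stretch on the MEG3 side are the 2 miR-1185 hairpins, which gave the brightest spot of the cluster, miR-1185-1-3p. miR-1185-5p read 247.1 units on the BNCT array and 253.4 on the control array, below both blank means.

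**Figure D3:**
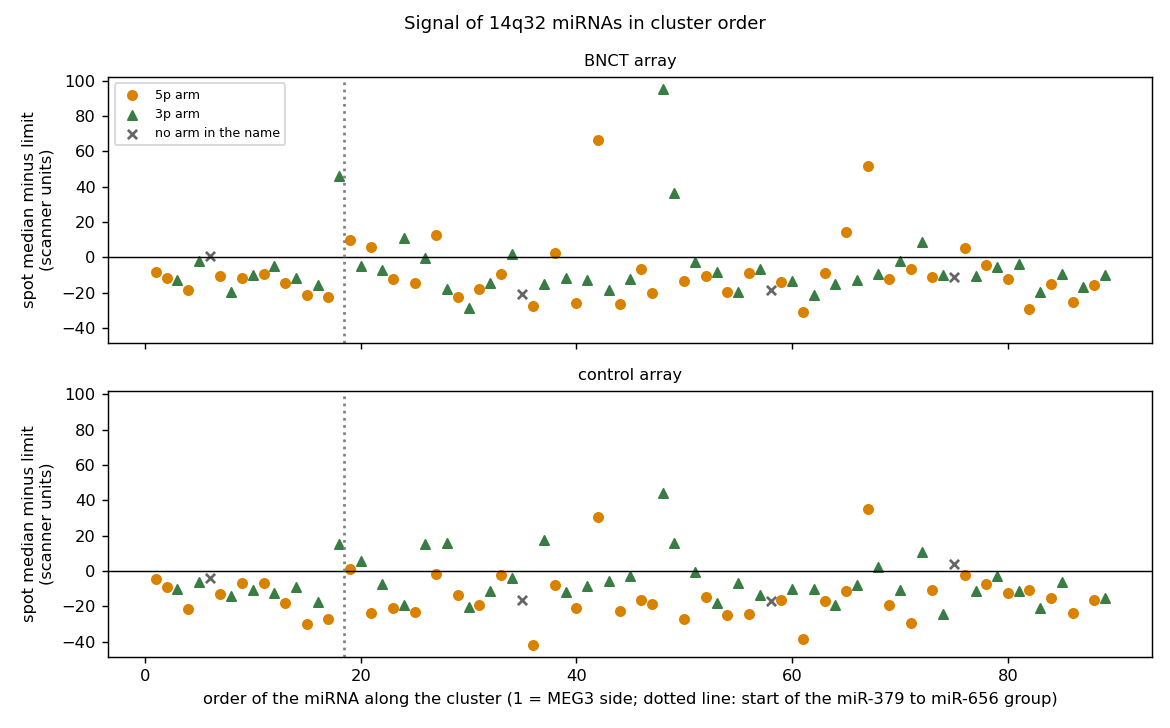
Spot median minus the array's detection limit, in scanner units (y axis), for the cluster miRNAs in their order along chromosome 14 (x axis), BNCT above and control below, with circles for 5p arms, triangles for 3p arms and crosses for names without an arm. The flagged miR-410-3p spot is left out of the control panel, and most points lie below 0 on both arrays.

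Both arms of a hairpin were seldom detected together, in a cluster where few single arms were detected. On the BNCT array 18.6% of 5p and 14.3% of 3p arms passed the limit, and on the control array 6.98% and 21.4%. Whether pairs were rarer than these shares give was not tested. Of 43 hairpins with a probe for each arm, 0 had both arms detected on the BNCT array (exact 95% interval up to 8.22%) and 2 on the control array (4.65%), against 16.1% and 10.6% of all 878 such hairpins on the BNCT and control arrays. A single arm was detected for 14 hairpins on the BNCT array (32.6%) and 8 on the control array (18.6%), against 38.2% and 34.7% of the 835 other hairpins. No arm was detected on either array for 27 of 43 (62.8%), against 39.9% of the others. A mature sequence that comes from several hairpins was counted with each different partner arm, so miR-1185-5p and miR-376a-3p stand in more than 1 pair.

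The hairpins with both arms detected on the control array were miR-379 and miR-668, and miR-323a had its arms detected on different arrays. The RefSeq hairpins of miR-379 and miR-323a are shown because their arms differ in call, with the mature arms in capitals, 5p before 3p.
MIR379: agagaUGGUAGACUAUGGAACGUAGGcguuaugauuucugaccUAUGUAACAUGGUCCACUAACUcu
MIR323A: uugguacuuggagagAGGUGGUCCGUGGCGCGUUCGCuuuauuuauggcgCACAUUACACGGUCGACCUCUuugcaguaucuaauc
They lie at chr14:101022066-101022132 and chr14:101025732-101025817 on the plus strand. For miR-379 the 5p arm was detected on both arrays and the 3p arm on the control array alone. For miR-668 the 5p arm was likewise detected on both and the 3p arm on the control array alone. For miR-323a the 5p arm was detected on the BNCT array alone and the 3p arm on the control array alone, with the 5p spot brighter on the BNCT array by 9.98 units and the 3p spot dimmer there by 38.2 units.

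The difference between arms was taken as the normalized BNCT minus control difference of the 5p arm minus that of the 3p arm. Median scaling, spike scaling and no normalization give the same value for it, since both arms share the array's shift. Spots below the limit enter it at their measured value, so it describes spots and is not a fold of RNA. It was 0.90 for miR-323a (spot error 0.22), 0.79 for miR-495 (0.14) and 0.55 for miR-380 (0.18), all through a dimmer 3p spot on the BNCT array. These 3 of 42 hairpins with passing flags (7.14%) lay beyond 3 spot errors, against 2.97% of all 876 such hairpins. The 3 values kept their direction under every setting run. They were smallest with the scanner's background column or without background correction, at 0.21 for miR-323a, 0.31 for miR-495 and 0.16 for miR-380. The values of miR-323a and miR-380 are then below the spot errors of 0.22 and 0.18. Those errors belong to the main processing, so the line of 3 spot errors holds for that processing only. The next largest was 0.43 for miR-134 (spot error 0.18), where the 5p arm was brighter and the 3p arm dimmer on the BNCT array. The most negative was -0.32 for miR-299 (spot error 0.15).

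Over the cluster, a larger share of 3p than of 5p arms read dimmer on the BNCT array, and the same held over the whole array. The raw spot was brighter on the BNCT array for 21 of 43 5p arms (48.8%) and 12 of 41 3p arms (29.3%), against 62.8% of all 5p probes and 49.3% of all 3p probes. The median raw difference, BNCT minus control, was -0.03 units for the 5p arms and -6.51 for the 3p arms of the cluster, and 5.07 and -0.26 over all 5p and all 3p probes. Of 43 5p arms 8 were detected on the BNCT array (18.6%) and 3 on the control array (6.98%), against 42.5% and 34.6% of all 5p probes. Of 42 3p arms 6 were detected on the BNCT array (14.3%) and 9 on the control array (21.4%), against 28.3% and 21.4% of all 3p probes, so that the order of the arrays was the reverse of that over all 3p probes. On the BNCT array alone 5 5p arms (11.6%) and 2 3p arms (4.76%) were detected, against 11.1% of all 5p and 13.5% of all 3p probes. On the control array alone 0 5p arms and 5 3p arms (11.9%) were detected, against 3.24% and 6.57%. These counts are small and their differences were not tested. In 17 of 42 hairpins (40.5%) the 5p spot was brighter and the 3p spot dimmer on the BNCT array, and in 8 (19%) the reverse was seen, against 30.8% and 18.0% of the 834 other hairpins. Across the 42 hairpins the differences of the 2 arms had a Pearson r of -0.14 and a Spearman rho of -0.16, over points that share both arrays.

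**Figure D4:**
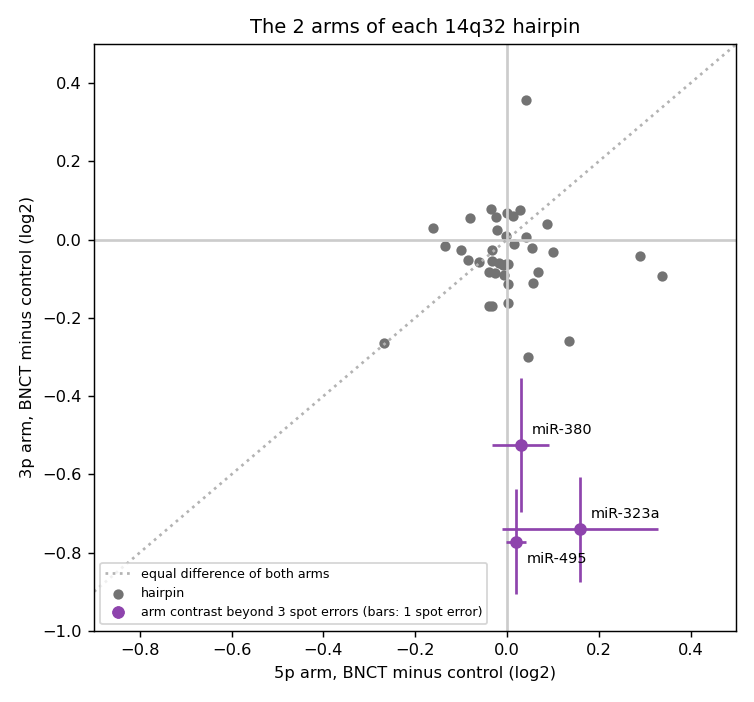
Normalized BNCT minus control difference (log2) of the 5p arm (x axis) and the 3p arm (y axis) for 42 hairpins of the cluster with passing flags, with spot error bars on the 3 hairpins beyond 3 spot errors. miR-323a, miR-495 and miR-380 lie well below the dotted line of equal differences, with 3p values of -0.74, -0.77 and -0.52.

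The raw differences, BNCT minus control, had an SD of 12.9 units over the 89 cluster miRNAs with passing flags and 10.3 units over the blank spots, with medians of -3.63 and -2.75. Across these 89 miRNAs the log2 spots of the arrays had a Pearson r of 0.73, which was 0.41 over the 82 not detected on both and 0.96 over the 2541 other probes. The 2541 include probes detected on both arrays, so their value and that of the 82 cover unlike ranges of brightness. These correlations are across probes of the same arrays, which are not replicates.

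The cluster was poorer in G and C than the rest of the array, and a smaller share of its GC-rich members passed the limit. The median GC content of its 89 mature sequences in RefSeq was 45.5%, and that of the 2248 other probes with a sequence 52.2%. Of the cluster miRNAs below 50% GC, 7 of 53 were detected on the BNCT array (13.2%) and 7 on the control array (13.2%), against 7.91% and 6.79% of the 898 other probes of that kind. At 50% GC or more, 8 of 36 were detected on the BNCT array (22.2%) and 5 on the control array (13.9%), against 56.4% and 44.7% of 1350 others. The exact 95% interval for 22.2% runs from 10.1 to 39.2. Spot brightness and GC content had a Spearman rho of 0.25 on the BNCT array (89 miRNAs) and 0.09 on the control array (88), against 0.63 and 0.56 over the other probes, which share array and hybridization.

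The letters GGG, searched in the mature strand only and counted once per miRNA, occurred in 19 of the 89 (21.3%) and in 33.3% of the 2248 others. On the BNCT array 8 of these 19 were detected (42.1%) and 7 of the 70 without it (10.0%), and on the control array 5 of 19 (26.3%) and 7 of 70 (10.0%). Among other probes with GGG 69.1% were detected on the BNCT array and 56.4% on the control array, and among those without it 21.1% and 16.1%. The letters are a description of which probes gave signal, and their part in the brightness was not tested.

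**Figure D5:**
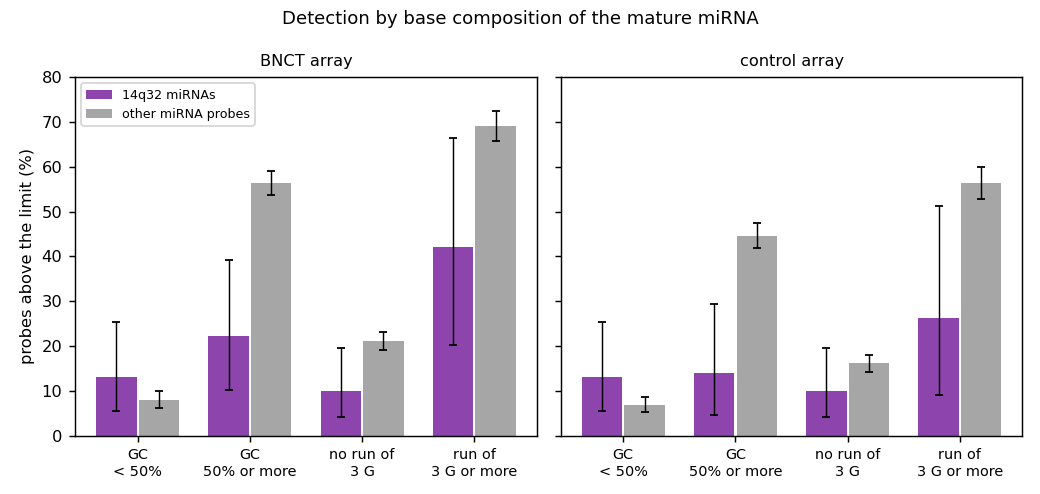
Percent of probes above the detection limit (y axis) by GC content and by a run of 3 or more G in the mature miRNA (x axis), BNCT on the left and control on the right, for cluster miRNAs and all other miRNA probes, with exact 95% binomial intervals. At 50% GC or more the cluster reached 22.2% on the BNCT array and 13.9% on the control array, well below the 56.4% and 44.7% of other probes.

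Apart from the near-identical miR-1185 3p arms, no 2 miRNAs of the cluster with a common seed were both detected. Few of them share a seed, and 21 of the 90 (23.3%) were detected on at least 1 array, so this absence says nothing of seed families. The 88 mature miRNAs on chromosome 14 have 78 different seeds. The 3p arms of the first hairpins of the downstream group are shown to compare family members with different calls, with the seed in capitals.
miR-379-3p: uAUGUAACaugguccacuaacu
miR-411-3p: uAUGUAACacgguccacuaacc
miR-380-3p: uAUGUAAUaugguccacaucuu
miR-379-3p and miR-411-3p share the seed and differ by U10C and U22C, and miR-380-3p differs from miR-379-3p in the seed by C8U. miR-379-3p and miR-380-3p were detected on the control array, and miR-411-3p, at 260.6 units on the BNCT array and 264.9 on the control array, on neither. The seed of miR-654-5p is also that of miR-541-3p, which was below the limit on both arrays (262.2 units on the BNCT array, 269.0 on the control array). miR-376c-5p, detected on the BNCT array, shares its seed with miR-376b-5p, which read 241.3 units on the BNCT array and 249.4 on the control array. The seed shared by miR-494-5p, miR-323b-5p and miR-410-5p went with no detected miRNA.

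The other lists are read against 36.2% of all probes on the BNCT array and 28.6% on the control array. Apart from the placental cluster they hold 7 to 10 probes, and differences between them were not tested. The placental cluster of chromosome 19, imprinted in the other direction, had 18 of 56 probes detected on the BNCT array (32.1%) and 14 on the control array (25%). Of 9 neuronal miRNAs 2 were detected on the BNCT array (22.2%) and 1 on the control array (11.1%), with a highest spot of 269.7 units on the BNCT array and 285.2 on the control array. Of 10 miRNAs of glial and mesenchymal lines 2 were detected on each array (20%), with a highest spot of 915.6 units on the BNCT array and 620.0 on the control array. Of 7 blood miRNAs 3 were detected on the BNCT array (42.9%) and 0 on the control array, with a highest spot of 273.8 units on the BNCT array and 268.2 on the control array. The highest spots of the placental cluster were 373.5 units on the BNCT array and 308.6 on the control array. On both arrays 7 probes of the placental cluster and 1 miRNA of glial and mesenchymal lines were detected, against 23.9% of all probes. Of the neuronal and the blood miRNAs 0 were detected on both.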

How the data were processed

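Per the labels, total RNA was labelled with Cy5 for Toray 3D-Gene human miRNA arrays. The deposited files hold, per the file headers, the median spot intensity at 635 nm, with a background median and a flag at each of 3 gains, unscaled between arrays. The authors' processed intensities are on a linear scale, with cells left empty where no value is listed. The listed cluster miRNAs were the same 15 (BNCT) and 13 (control) as were detected here. The scanner's software was not named in the labels or headers.

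Spots were corrected with limma 3.58.1 in R 4.3.3 (nec on the blank spots, offset 50), put on the log2 scale and quantile-normalized over 2632 miRNA probes, with flagged spots missing. The procedure was tested on simulated data, with changes larger than 2-fold. The changed probes were drawn from those brighter on the control array than every cluster spot with a passing flag. The test therefore does not cover spots near the limit, where the cluster lies. All cluster miRNAs detected on at least 1 array, flagged spots and hairpins with both arms detected are named. The members, lists and rules, including the use of blanks in place of the scanner's background column, were chosen with earlier results of these data known. Arm contrasts under other settings, the 3 spot errors, GC content and GGG were added after the data were seen. Exact intervals are Clopper-Pearson. Mature and hairpin sequences and gene neighbours are from RefSeq, GRCh38.p14, matched by name for 89 of 90.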

Additional observations from a re-analysis of the deposited data

How the results depend on the processing

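The median difference of the 7 miRNAs detected on both arrays, -0.04, turned to 0.32 without normalization, 0.60 with spike scaling and 0.43 in the authors' values. The count higher by 0.5 or more, 0, became 1, 4 and 3 in these settings, and the count lower, 0, became 2 with plain subtraction, 1 with median scaling, 1 in the authors' values and 3 over all cluster miRNAs with passing flags. A limit of 5 SD left 5 detected on the BNCT array, 3 on the control array and 3 on both, and the limit from spots without a probe left 4, 0 and 0. The 2 hairpins with both arms detected on the control array became 0 under either limit. Of 56 single differences under other settings, 20 changed sign. In 16 of these at least 1 of the values was larger than the spot error, and in the other 4 (miR-1185-1-3p with the scanner's background column, median scaling and cyclic loess, and miR-370-3p with median scaling) neither was. A further 15 kept their sign and moved by more than the spot error. Without normalization, with spike scaling and in the authors' values, miR-1185-1-3p turned to 0.55, 0.83 and 0.59, miR-1185-2-3p to 0.32, 0.60 and 0.43, miR-654-5p to 0.45, 0.73 and 0.52 and miR-668-5p to 0.21, 0.50 and 0.088. miR-323b-3p turned to 0.28 where the scanner's background column was used and to 0.21 under spike scaling, miR-379-5p to -0.36 with median scaling and miR-370-3p to -0.40 with that column. The cause was not tested. Arm contrasts were not computed after plain subtraction, where spots below the blank mean are raised to a floor before the log. No paired analysis was possible because each group has 1 array. Most signals lie within a few blank SDs of the limit (6.27 units on the BNCT array, 6.93 on the control array), which limits every call.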

Other observations

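The miR-376 family, whose members are known to be edited from A to I in brain, was dark apart from 1 arm. miR-376a-3p read 254.6 units on the BNCT array and 263.4 on the control array, miR-376b-3p read 255.2 and 269.0 units and miR-376c-3p read 255.5 and 260.1 units on the BNCT and control arrays, all below the limits. miR-376c-5p, at 269.9 units on the BNCT array and 264.3 on the control array, was the only member above a limit. miR-376a-3p and miR-376b-3p share their seed and differ by C19U over the bases they have in common.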
